A study of Homo sapiens with 18 samples.

Results

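H3K4me3, the histone mark of active and poised promoters, was compared between 2 conditions of a human lung adenocarcinoma cell line, H2087-LCC-SO1 (SO1) and H2087-LCC treated with the cytokine TGF-β1 (TGFb). The 2 libraries were chosen by their titles out of 18 samples, of which 13 have a list of peak summits. A summit is the single base at which a peak was highest. On chromosomes 1 to 22 and X the SO1 list held 28627 summits and the TGFb list 28850, together 57477 of the 946841 summits of the series. SO1 carries its own cell line label and received no treatment per the labels. TGFb cells carry the H2087-LCC label and were given 100 nM TGF-β1 for 4 days. That dose is copied from the labels, is high for this cytokine and was not checked. Both were grown in the same supplemented, serum-containing medium with hydrocortisone, insulin, transferrin and epidermal growth factor. How SO1 was derived from H2087-LCC is not given in the labels. The comparison therefore changes both the cell line label and the treatment. Untreated H2087-LCC (LCC) and the separate lung adenocarcinoma line H2030, with 1 H3K4me3 library each, served as reference points, as did the H3K27ac and H3K4me1 lists of the same conditions.

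H3K4me3 is laid down around transcription start sites by SET1 and MLL family methyltransferases, and its height broadly follows promoter activity. H3K27ac marks active promoters and enhancers, while H3K4me1 is typical of enhancers and of promoter flanks. An H3K4me3 peak that carries H3K27ac is usually an active promoter, whereas weak H3K4me3 beside strong H3K4me1 is common at enhancers. TGF-β signals through receptor kinases and SMAD transcription factors. In epithelial cells it slows division and can bring about an epithelial-mesenchymal transition. The title of the series concerns STING and the reactivation of dormant metastasis.

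Each condition was represented by 1 library, so no test was run, no p-value is given, and differences have no replicate check. Peak scores ran from 1.31 to 777 in SO1 and from 1.34 to 731 in TGFb, with medians of 183 and 147. The score is the authors' own value for each peak and rises with read depth, which is unknown. It is therefore given as a percentile rank, in which 100 is the highest score of that list. The peak names of the TGFb and LCC lists begin with one and the same word and those of the SO1 lists with another. Whether this reflects separate experiments is not stated, so the condition and any such difference cannot be told apart. Positions are hg19 coordinates. They are not tied to genes, since the annotation at hand is of another build, and the labelled cell type was not checked against marker genes for the same reason.

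SO1 and TGFb marked largely the same sites. Of the SO1 summits, 81.7% had a TGFb summit within 500 bp (Wilson 95% interval 81.2 to 82.1). In the other direction 81.1% of the TGFb summits had an SO1 summit (80.6 to 81.5). Matched summits lay a median of 38 bp apart, and 213 lay on the identical base. In untreated LCC, whose list is shorter (26049 summits), 77.3% of the SO1 summits (76.8 to 77.8) and 81.6% of the TGFb summits (81.2 to 82.0) were found. Of the LCC summits, 85.0% had an SO1 summit (84.5 to 85.4) and 90.3% a TGFb summit (89.9 to 90.7). Such shares also move with list length, so no nearness of the lists is read from them. H2030 held 58.1% of the SO1 and 58.3% of the TGFb summits. These intervals, and those below, cover counting error only.

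Sharing depended on peak strength in both lists. In the lowest decile of scores (deciles are taken within each list) 37.4% of the SO1 summits (35.7 to 39.2) and 37.3% of the TGFb summits (35.6 to 39.1) were shared. In the fourth decile the shares were 86.9% and 83.8%. From the sixth decile upwards every decile of the SO1 list lay between 95.04% and 95.63%, and every decile of the TGFb list between 93.9% and 96.6%. Among the 14314 SO1 summits at or above the list median, 674 had no TGFb summit within 500 bp, but 616 of these had one within 2 kb. Only 18 of the 674 lay over 10 kb from any TGFb summit. Of the 743 unshared TGFb summits at or above the median, 637 had an SO1 summit within 2 kb and 43 lay over 10 kb from one. Below the median, 2537 of the 4572 unshared SO1 summits and 2502 of the 4710 unshared TGFb summits lay over 10 kb away.

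**Figure D1:**
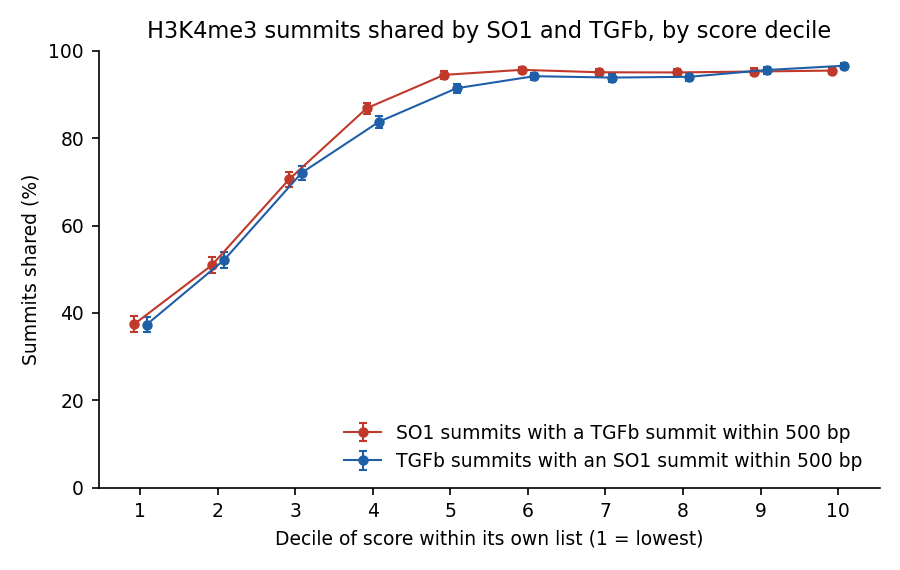
Share of H3K4me3 summits (%) with a summit of the other list within 500 bp, by decile of the score within the own list, for SO1 (red) and TGFb (blue). Bars are Wilson 95% intervals. The shares rise from 37.4% and 37.3% in the lowest decile to 95.5% and 96.6% in the highest.

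Summits of both lists were merged within 1000 bp into 32459 elements. Both conditions marked 23994 of them (73.9%), SO1 alone 4211 and TGFb alone 4254. An element was called isolated when the other list had no summit within 10 kb. There were 2497 isolated SO1-only elements (7.69% of all elements) and 2472 isolated TGFb-only elements (7.62%). Their median percentile ranks were 13.6 and 14.9, so that nearly all were among the weak peaks of their list. With a score at or above the list median 18 elements remained in SO1 (0.0555% of all elements) and 43 in TGFb (0.132%). These are the strong isolated elements described next. When scores under 10 were left out of both lists, the medians rose to 348 and 327 and the counts fell to 4 and 13.

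The 18 strong isolated SO1-only elements were mostly marks that untreated LCC lacked as well. LCC had an H3K4me3 summit within 1 kb at 3 of them (16.7%, Wilson 95% interval 5.84 to 39.2), at ranks of 0.891, 26.1 and 30.5. LCC marked 75.9% of all elements and 99.4% of the 13521 shared elements at or above the median of both lists. The 18 were chosen for lacking a TGFb summit and the 13521 for having a strong one. Since 90.3% of the LCC summits had a TGFb summit, this contrast partly follows from the choice. SO1 carried H3K27ac at 14 of the 18 (77.8%), against 69.2% of all elements and 89.6% of the 13521. TGFb carried it at 4 (22.2%), against 70.9% and 90.7%. All 4 of those also carried it in SO1. H3K4me1 was present at 12 in SO1 (66.7%, against 73.4% of all elements) and at 6 in TGFb (33.3% against 72.2%). At 12 of the 18 no TGFb summit of any of the 3 marks lay within 1 kb, and at 9 none lay within 10 kb. The lack of TGFb H3K4me3 at these distances follows from the choice, so the counts rest on H3K27ac and H3K4me1. H2030 marked 4 of the 18 (22.2%), against 57.9% of all elements and 91.9% of the 13521.

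The first of these elements by rank, 11:68133636, was at percentile 80.0 of the SO1 list (score 564). The nearest TGFb H3K4me3 summit lay 11729 bp away and the nearest LCC summit 11664 bp away. Both conditions had the other marks within 1 kb of this site. H3K27ac ranked 91.6 in SO1 and 69.1 in TGFb, and H3K4me1 93.3 and 78.5. The nearest H3K27ac summit lay 361 bp away in SO1 and 872 bp away in TGFb. For H3K4me1 the distances were 976 bp and 938 bp. The second, 11:102618020, ranked 78.6 for H3K4me3 and 86.1 for H3K27ac in SO1. TGFb had no summit of any mark closer than 13112 bp, and its nearest H3K4me3 summit lay 186581 bp away. LCC and H2030 lacked the mark there too, with H3K4me3 summits at 134343 bp and 134293 bp. The remaining elements ranked 56.7 or lower, close to the middle of the list.

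At 14:35466674 (rank 56.7) the nearest TGFb summit lay 14237 bp away, and neither condition had H3K27ac or H3K4me1 within 1 kb. The element 12:24715085 (56.4) had no H3K27ac and only a low H3K4me1 rank of 18.7 in SO1. H2030 marked it with H3K4me3 at rank 34.1. At 14:28657532 (56.4), 8:115649349 (56.2) and 7:70202130 (56.1) SO1 had H3K27ac at ranks of 55.2, 43.0 and 59.4. TGFb had no summit of any mark closer than 106873 bp, 132638 bp and 41771 bp to these 3 elements. The element 14:27148464 (54.6) carried SO1 H3K27ac at rank 75.2, and its nearest TGFb H3K4me3 summit, 305280 bp away, was the most distant among the 18. At 19:14080721 (53.8) H3K27ac was high in both, at 93.3 in SO1 and 77.0 in TGFb, so the difference there lay in H3K4me3 more than in acetylation. The element 12:62959868 (53.8) had SO1 H3K27ac at rank 65.1 and no TGFb mark closer than 16153 bp. Neither 4:81951927 (53.7) nor 1:151446020 (52.3) had H3K27ac in either condition. The latter was one of the 3 with an LCC summit, at rank 30.5.

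The 43 strong isolated TGFb-only elements were mostly marks that untreated LCC had as well. Untreated LCC marked 39 of them (90.7%, 78.4 to 96.3), against 75.9% of all elements. Of the shared elements at or above the median of both lists it marked 99.4%. The choice by the TGFb list bears on the share at the 43 as well. H2030 marked 26 (60.5%), against 57.9% of all elements and 91.9% of those strong shared elements. The median LCC rank at the 39 was 46.3, and the TGFb median over all 43 was 52.8. The choice set a floor for the TGFb rank and none for LCC, so no difference in strength is read from these medians. TGFb carried H3K27ac at 29 of the 43 (67.4%, against 70.9% of all elements) and SO1 at 5 (11.6% against 69.2%). LCC carried it at 24 in replicate 1 (55.8% against 64.4%) and 27 in replicate 2 (62.8% against 68.8%) of its H3K27ac libraries. At the shared elements at or above both medians H3K27ac was more frequent, at 90.7% in TGFb and 89.6% in SO1. In the LCC replicates it stood there at 86.1% and 90.3%. H3K4me1 was present at 27 in TGFb (62.8% against 72.2%), 33 in LCC (76.7% against 73.1%) and 12 in SO1 (27.9% against 73.4%). At 29 of the 43 SO1 had no summit of any of the 3 marks within 1 kb, at 18 none within 10 kb and at 9 none within 50 kb. Up to 10 kb the lack of SO1 H3K4me3 follows from the choice, so those counts rest on H3K27ac and H3K4me1. Where SO1 lacked all marks over long distances, missing DNA and missing marks cannot be told apart. The 43 elements lay on 20 chromosomes and the 18 SO1-only ones on 9, with 4 on chromosome 11 and 3 each on chromosomes 12 and 14.

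The highest of them, 5:8458058, was at percentile 94.1 of the TGFb list (score 603) and 95.3 of the LCC list. SO1 had no summit of any mark closer than 170951 bp, and H2030 had no H3K4me3 closer than 58787 bp. The next, 14:38052953, ranked 72.9 in TGFb, 75.1 in LCC and 59.1 in H2030. It had H3K4me1 at rank 89.5 but no H3K27ac in TGFb, and SO1 had its nearest H3K4me3 summit at 11040 bp. At 15:90358242 TGFb ranked 67.0 and LCC 69.0, with TGFb H3K27ac at 73.5 and the nearest SO1 summit of any mark 5780 bp away. The element 10:54074109 ranked 63.7 in TGFb, 61.5 in LCC and 77.2 in H2030. No SO1 summit of any mark lay closer than 80786 bp to it. This element lies in the block 10:54000001-54500000, which held 44 TGFb summits of the 3 marks and 0 in SO1.

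Several further elements were marked in TGFb, LCC and H2030 and not in SO1. At 13:26625875 the ranks were 61.9 in TGFb, 51.3 in LCC and 58.2 in H2030. At 10:116164029 they were 61.3, 45.3 and 25.2, and SO1 kept weak H3K4me1 there at rank 5.37. At 8:13133868 they were 60.4, 55.9 and 76.7, with TGFb H3K27ac at 78.7 and no SO1 summit of any mark closer than 76636 bp. The element 11:67351515 ranked 60.2, 59.1 and 89.7, and TGFb H3K27ac stood at 72.2. At 19:36000847 the ranks were 58.2, 53.5 and 61.9, with TGFb H3K27ac at 73.9. At 2:175547417 they were 57.5, 49.8 and 98.8, so this element was among the highest of the H2030 list. The nearest SO1 summits of any mark at these last 3 lay 4059 bp, 7837 bp and 8121 bp away.

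Only 4 of the 43 lacked an LCC H3K4me3 summit within 1 kb and were thus marked after TGF-β1 and in neither untreated LCC nor SO1. The element 5:136834834 ranked 64.7 in TGFb and 58.0 in H2030. Its nearest SO1 and LCC H3K4me3 summits lay 254334 bp and 254690 bp away. TGFb had H3K27ac there at rank 66.8, whereas SO1 and LCC had H3K4me1 at 40.8 and 41.5 and no H3K27ac. At 1:228750814 TGFb ranked 62.7, and SO1 kept H3K27ac at 62.1 beside 55.7 in TGFb. An LCC summit lay 4545 bp away. At 1:172225286 TGFb H3K4me3 ranked 53.5 with H3K27ac at 98.4, and H2030 H3K4me3 ranked 42.6. At 4:118246929 TGFb H3K4me3 ranked 50.6 with H3K27ac at 79.4, and H2030 ranked 38.3. For the last 3, SO1 H3K4me3 was nearest at 18005 bp, 65976 bp and 229864 bp.

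**Figure D2:**
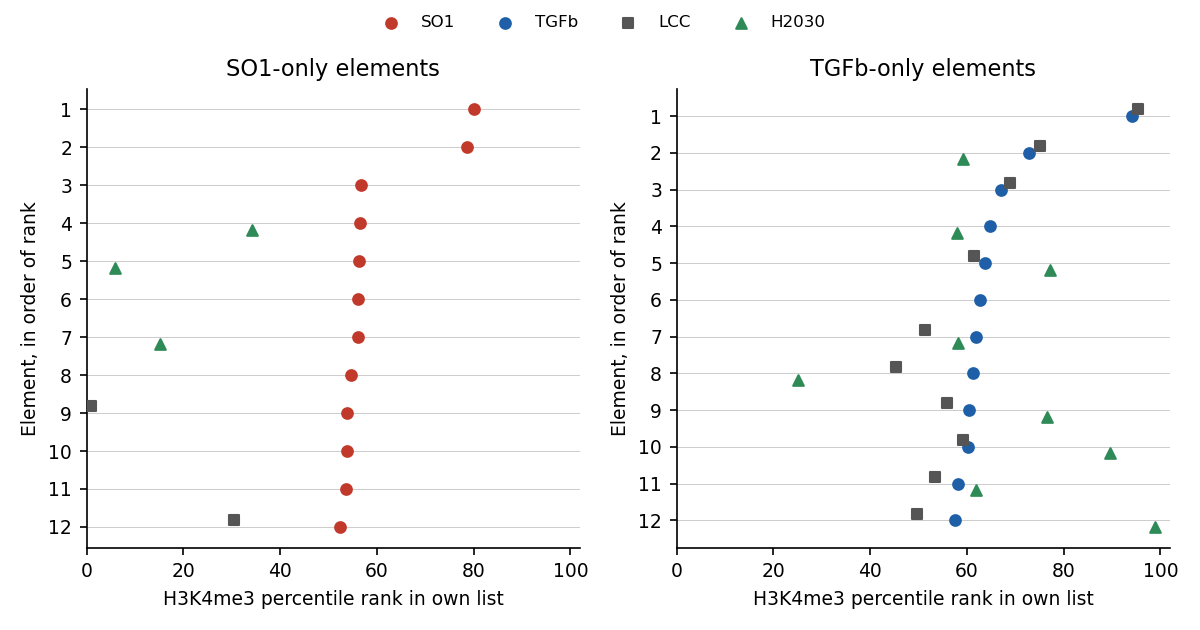
H3K4me3 percentile rank (x axis) of the 12 highest-ranked strong isolated elements of SO1 (left) and TGFb (right), numbered in order of rank, in SO1, TGFb, LCC and H2030. A missing point means that no summit lay within 1 kb. LCC has a point at 2 of the 12 SO1-only and at 10 of the 12 TGFb-only elements.

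The share of isolated elements that LCC also marked rose with peak strength for TGFb-only elements and stayed low for SO1-only ones. LCC marked 23.7% of the isolated TGFb-only elements in the lowest decile of ranks, 64.8% between ranks 20 and 30, 86.0% between 30 and 50, and 90.7% above 50. Among isolated SO1-only elements the same shares were 9.73%, 16.2%, 13.2% and 16.7%. Over all isolated elements LCC marked 44.6% of the TGFb-only (42.6 to 46.5) and 13.1% of the SO1-only ones (11.8 to 14.4). H2030 marked 24.1% and 21.1%. The sets were defined by the presence or absence of a TGFb summit, so the LCC shares are not free of that choice. Neither LCC nor H2030 marked 1740 of the 2497 SO1-only elements (69.7%) and 1110 of the 2472 TGFb-only elements (44.9%). The same held for 19.2% of all elements and 14.5% of the shared elements below the median of both lists.

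Isolated elements often carried the other marks of their own condition, and less often those of the other one. Of the isolated SO1-only elements 57.7% had SO1 H3K27ac (55.8 to 59.7) and 75.1% SO1 H3K4me1. The shared elements below the median of both lists had 61.0% and 77.1%. TGFb also had H3K27ac at 50.0% of the SO1-only elements and H3K4me1 at 63.2%. Of the isolated TGFb-only elements 58.1% had TGFb H3K27ac and 38.4% SO1 H3K27ac, and H3K4me1 stood at 71.7% and 59.99%. Where only one condition had H3K27ac, it was usually the one with H3K4me3. Among SO1-only elements 289 had H3K27ac in SO1 alone and 96 in TGFb alone. Among TGFb-only elements 551 had it in TGFb alone and 63 in SO1 alone. At these shared weak elements the 2 counts were near each other, 647 in SO1 alone and 624 in TGFb alone. The H3K27ac list of TGFb is longer, with 68069 summits against 56279 in SO1, and the part of this in the larger TGFb-only contrast was not tested.

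**Figure D3:**
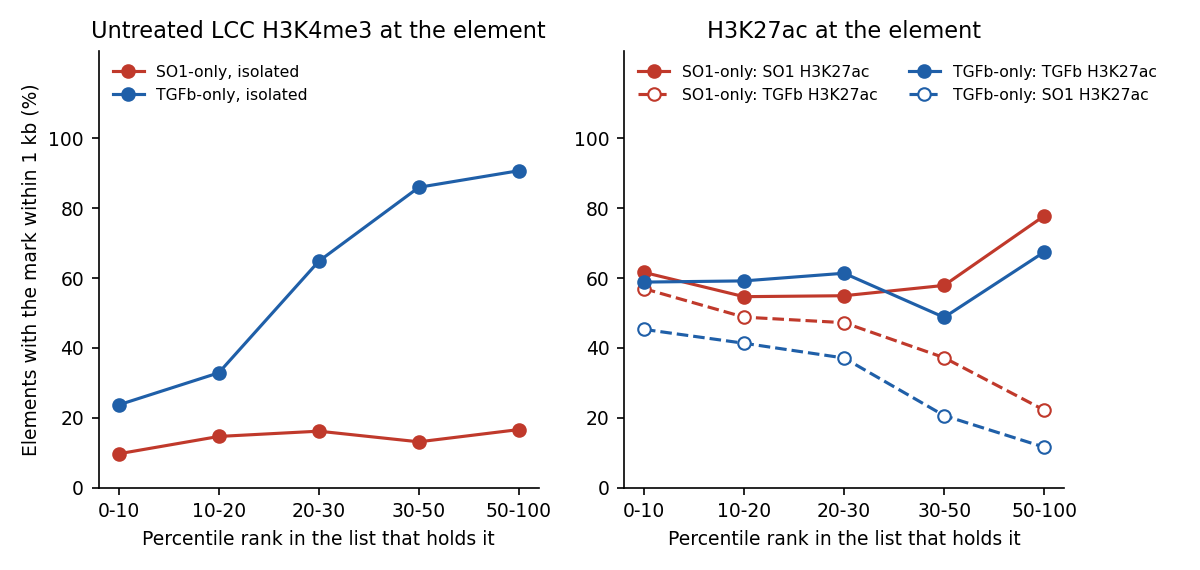
Share (%) of isolated SO1-only (red) and TGFb-only (blue) elements with LCC H3K4me3 (left) and with H3K27ac of the same (filled) or other condition (open) within 1 kb (right), by percentile rank in the list that holds the element. The LCC share of TGFb-only elements rises from 23.7% to 90.7%, while that of SO1-only elements stays between 9.73% and 16.7%.

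Peak strength at shared elements was ordered alike over the whole range. Spearman's rho between the percentile ranks was 0.93 over 23994 elements, given as a description because elements are not replicates. It was 0.77 over the 13521 elements at or above the median in both lists and 0.68 over the 9218 below it in both. Cutting on the same ranks narrows their range and lowers rho, so these values do not show looser agreement within either part. The median absolute difference was 5.57 points and 95% of elements differed by less than 21.4 points. Over the 22093 shared elements with an LCC summit, rho with LCC was 0.95 for TGFb and 0.92 for SO1. A difference of 30 points or more, a threshold chosen after seeing the data, was found at 139 elements with SO1 higher (0.579%) and 146 with TGFb higher (0.608%). LCC had a summit at 97 of the 139 (69.8%) and 143 of the 146 (97.9%), against 92.1% of all shared elements. Its rank was nearer to that of TGFb at 89 of the 97 and at 111 of the 143. At smaller differences the pattern was not the same in both directions. With SO1 higher by 10 to 20 or 20 to 30 points, LCC was nearer to TGFb at 76.3% and 76.7% of elements. With TGFb higher by 20 to 30 points it was nearer to TGFb at 57.1%, and by 10 to 20 points at 47.6%. Where the conditions differed by less than 10 points the share was 53.4%.

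**Figure D4:**
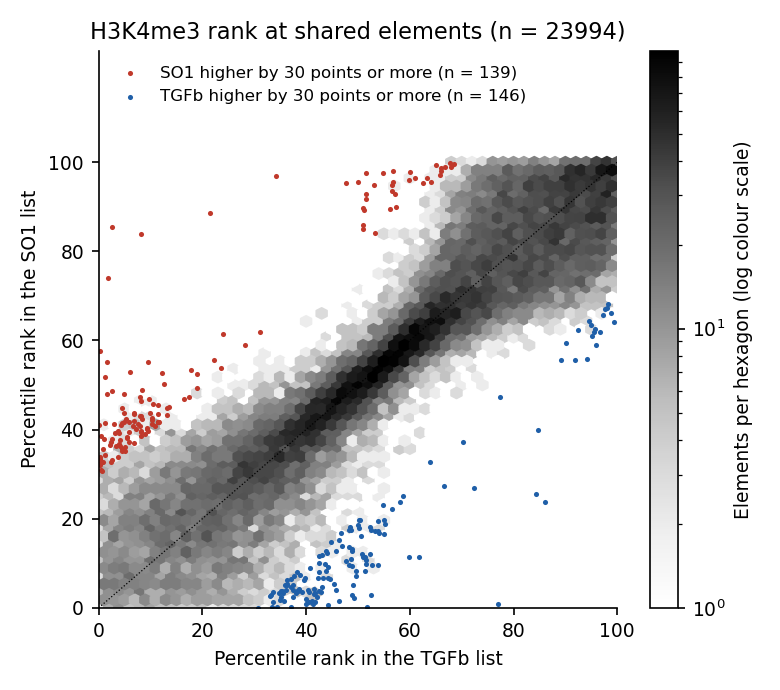
Percentile rank of H3K4me3 in the SO1 list against that in the TGFb list at 23994 shared elements (grey hexagons, log colour scale for the number of elements). Elements with SO1 higher by 30 points or more are red (139) and those with TGFb higher are blue (146), and the dotted line marks equal rank.

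The largest difference with SO1 higher was at 7:70160302-70160359, with rank 85.3 in SO1 and 2.53 in TGFb. SO1 H3K27ac ranked 69.6, and TGFb had none closer than 497683 bp. LCC had no H3K4me3 summit closer than 497717 bp, and the SO1-only element 7:70202130 lay 41771 bp from that TGFb summit. At 10:4805708-4806072 the ranks were 83.9 and 8.07, and at 18:832077-832185 they were 74.1 and 1.76, with no H3K27ac in either condition at both elements. LCC ranked 11.8 at the first of them and had no summit within 1 kb of the second. At 4:121843336-121843629 SO1 ranked 88.7, TGFb 21.4, LCC 16.8 and H2030 89.2. SO1 H3K27ac ranked 73.1 there and 59.1 at 4:91049246-91049328, where the H3K4me3 ranks were 97.0 in SO1, 34.2 in TGFb, 28.4 in LCC and 59.8 in H2030. TGFb had no H3K27ac at either.

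The largest difference with TGFb higher was at 11:79151182-79151503, with rank 76.9 in TGFb and 0.847 in SO1. The nearest LCC summit lay 2466 bp away, and H2030 ranked 40.6. No H3K27ac was found in either condition there, and SO1 H3K4me1 ranked 55.1. At 19:35739219-35740113 the ranks were 86.1 in TGFb, 99.1 in LCC, 78.4 in H2030 and 23.8 in SO1, and TGFb H3K27ac ranked 77.3. At 2:133427518-133428054 they were 84.4, 51.2, 50.1 and 25.7, and TGFb H3K27ac ranked 87.4. At 16:1140284-1140634 TGFb ranked 51.8, LCC 48.4 and SO1 0.148, with TGFb H3K27ac at 80.2. At 11:45686794-45686921 TGFb ranked 61.8, LCC 67.0, H2030 46.8 and SO1 11.4. SO1 had H3K4me1 and no H3K27ac at all 5 of these elements.

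Where H3K4me3 ranks differed most, H3K27ac differed in the same direction. Over the 17136 elements with H3K27ac in both conditions, the SO1 minus TGFb rank differences of the 2 marks had a Spearman's rho of 0.30. For H3K4me1 it was 0.16 over 16080 elements. These values describe elements that share their libraries and carry no p. Of the 139 elements with H3K4me3 higher in SO1, 66 had H3K27ac in both conditions, and their median H3K27ac difference was 12.4 points. Of the 146 with TGFb higher, 52 had it in both, with a median of -24.9 points. At the 12403 elements within 10 points that had H3K27ac in both, the median was -5.52. The median H3K27ac ranks there were 74.1 in SO1 and 80.9 in TGFb. Presence followed the same direction. At the 139 elements 38 had H3K27ac in SO1 alone and 3 in TGFb alone, and at the 146 elements 7 and 33. H3K4me1 differences had the same sign, with medians of 5.39 and -11.9 points over the 80 and 93 elements with H3K4me1 in both conditions. Within 10 points the H3K4me1 median was 0.153 over 11622 such elements.

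**Figure D5:**
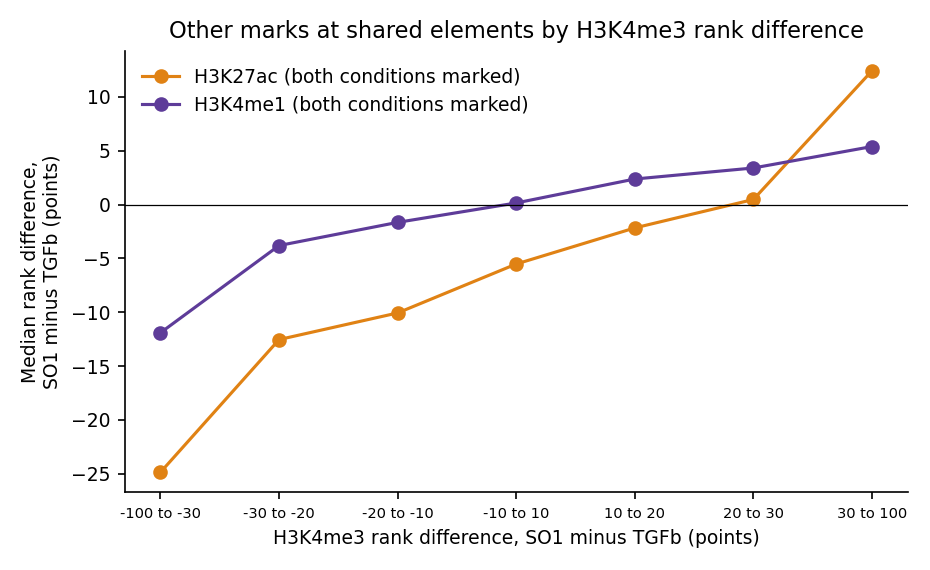
Median difference in percentile rank, SO1 minus TGFb, of H3K27ac (orange) and H3K4me1 (purple) at shared elements, by the H3K4me3 rank difference. Only elements with the mark in both conditions enter, and the H3K27ac line runs from -24.9 to 12.4 points.

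The numbers of differing elements varied among chromosomes, with no test of that variation. Of the shared elements with a rank difference of 30 points or more, chromosome 15 held 13 with TGFb higher and 1 with SO1 higher. It held 836 shared elements in all. Chromosome 11 held 13 and 3 among 1174 shared elements. On chromosome 6 the order was opposite, with 5 and 14 among 1348, and on chromosome 10 with 1 and 8 among 1021. These chromosomes are given for their uneven counts. Chromosome 1, with 2364 shared elements, held 12 with TGFb higher and 10 with SO1 higher. For all summits, the number of SO1 summits divided by that of TGFb per chromosome lay between 0.926 on chromosome 15 (949 and 1025 summits) and 1.05 on chromosome 4 (1215 and 1157). The same chromosomes had the lowest and highest ratio, 0.930 and 1.07, among summits at or above the median. Of 3367 blocks of 500 kb with at least 3 TGFb summits, 9 held none in SO1 (0.267%). Of 3307 such SO1 blocks 5 held none in TGFb (0.151%). In some blocks all marks were low together. The block 10:54000001-54500000 held 44 TGFb summits of the 3 marks and 0 in SO1, and 17:13000001-13500000 held 51 and 5. At 22:27500001-28000000 the numbers were 53 and 6, and at 8:72500001-73000000 they were 39 and 4. Missing DNA and missing marks cannot be told apart over the stretches of such blocks that hold no SO1 summit. Other blocks held H3K27ac summits in both conditions. The block 6:55500001-56000000 held 4 TGFb and 0 SO1 H3K4me3 summits, but 7 and 11 H3K27ac and 24 and 20 H3K4me1 summits. At 21:39500001-40000000 the numbers were 3 and 0 for H3K4me3 and 15 and 13 for H3K27ac, while H3K4me1 held 47 in TGFb and 21 in SO1. In the other direction 2:179500001-180000000 held 3 SO1 and 0 TGFb H3K4me3 summits, with 15 and 23 for H3K27ac and 30 and 41 for H3K4me1. At 18:31500001-32000000 SO1 held 6 summits of the 3 marks and TGFb 0.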

How the data were processed

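Each deposited file lists summits 1 bp wide in 5 columns without a header. The genome build was hg19 and the tools included deepTools, Bowtie2 and SAMtools, per the submitters' processing notes. The peak caller and how it was run are not stated in the labels or headers. The authors' deposited score was read as the −log10 of a p or q value, because the lowest values lie just above 1.30103, the −log10 of 0.05. Peaks were called per library, since the peak names of each list carry 1 library name. The files hold no widths, read counts or depth.

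Summits on chromosomes 1 to 22 and X were kept, which left out 39 in each of the 2 lists. Distances and counts were computed in Python 3.11.15 with numpy 2.4.6, pandas 2.3.3 and scipy 1.17.1. A mark was present at an element when a summit lay within 1000 bp, and the highest rank there was used. Named elements were the 12 highest-ranked strong isolated ones per direction and the 5 shared ones per direction with the largest rank difference. The 4 TGFb-only elements without LCC were singled out after their values were seen. Members and rules were chosen with earlier results of these data known. Gene counts and gene lists were not run, because the RefSeq tables used here are GRCh38 and the files hg19. For that reason no sequence is printed.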

Additional observations from a re-analysis of the deposited data

How the results depend on the processing

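Shares moved with the distance and the score filter and less with list length. Within 250 bp 77.3% of SO1 and 76.7% of TGFb summits were shared, within 1000 bp 84.8% and 84.6%, and with scores of at least 10 in both lists 84.1% and 86.1%. The strong isolated elements numbered 18 in SO1 and 43 in TGFb. With no strength condition they numbered 2497 and 2472, and with scores of at least 10 in both lists 4 and 13. In the latter the median of the shortened list is higher by construction. A distance of 25 kb left 24 TGFb-only elements. Leaving scores under 10 out of the other list alone, an alternative chosen after seeing the data, gave 28 SO1-only elements. TGFb-only elements outnumbered SO1-only ones in all of these settings except that without a strength condition. The LCC share of TGFb-only elements was 44.6% without the strength condition. With thresholds of 20 and 40 points, 770 and 26 shared elements ranked higher in SO1, and 763 and 26 in TGFb. No paired analysis was possible because both conditions have 1 library and no test was run. The counts of genes planned with their alternatives were not run for want of an hg19 annotation. Depth is unknown, so a missing weak summit does not show that a mark is absent.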

Other observations

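Around the list median that defines a strong element the ranks ran on without a gap. Just below it, isolated SO1-only elements stood at 4:171418571 (rank 49.8) and 1:196577536 (49.7), and just above it at 4:154208234 (50.3) and 11:57194445 (50.7). In TGFb the neighbours below were 1:119530206 (rank 49.97) and 3:19188393 (49.9), and those above were 22:44258028 (50.2) and 12:1640409 (50.3). With a rank of at least 40, 80 isolated elements were found in SO1 alone and 159 in TGFb alone, and with a rank of at least 25 they numbered 481 and 596.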
